A study of Mus musculus with 9 samples.

Results

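The genes described here are the core of the RAS-RAF-MEK-ERK cascade in LLC cells: Nras and Hras (RAS), Araf and Braf (RAF), Map2k1 and Map2k2 (MEK1 and MEK2) and Mapk3 (ERK1). They were chosen by symbol and not by a rule on their values, though earlier results of these data were known. They are 7 of the 50813 genes counted. All 7 passed the filter on low counts, which kept 14593 genes. Their lowest count in any library was 929 and their highest 7614.

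LLC is a mouse Lewis lung carcinoma line, which the study describes as mesenchymal-like and Nras-mutant and made to express luciferase stably. It was grown in DMEM with serum and antibiotics. RNA-seq was run on 9 libraries, with 3 from WT cells and 3 from each of the CD47 KO clones E3 and E5. The KO clones were made by electroporating Cas9 protein with a guide RNA against Cd47, followed by expansion of single cells, so each KO is 1 clone and a change caused by the loss of CD47 cannot be told apart from a difference between clones. Replicates are libraries of the same line, and p-values therefore measure the spread within a line.

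RAS proteins are small GTPases at the inner face of the membrane that bind GTP after growth factor receptors are engaged. GTP-bound RAS recruits RAF kinases, RAF phosphorylates MEK1 and MEK2, and these phosphorylate ERK1 and its partner ERK, which then act on kinases and transcription factors. The cascade is switched mainly by GTP loading and phosphorylation of proteins that are already present, and transcript counts do not measure either step. Bulk RNA also cannot separate fewer expressing cells from less RNA per cell.

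Each step of the cascade is shared by paralogues, so their transcripts had to be told apart by the reads. Over the coding sequence, Map2k1 and Map2k2 were 77.8% identical, Nras and Hras 76.1%, and Araf and Braf 67.5%. The longest identical run was 56 bases in the MEK pair, 23 in the RAS pair and 17 in the RAF pair. The MEK pair, the most alike, is printed around that run, with 20 bases on each side, from the GENCODE vM39 transcripts of the GRCm39 genome. Capitals mark the bases at which the genes differ, and the run itself is in lower case between the capitals. The run covers coding bases 391 to 446 of Map2k1 and 403 to 458 of Map2k2.
Map2k1: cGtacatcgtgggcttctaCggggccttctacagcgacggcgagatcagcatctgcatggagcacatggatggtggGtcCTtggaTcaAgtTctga
Map2k2: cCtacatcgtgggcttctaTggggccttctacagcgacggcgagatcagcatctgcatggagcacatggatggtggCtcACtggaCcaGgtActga
Of the 50-base windows of the canonical transcripts, 7 were shared by Map2k1 and Map2k2, of 2415 in Map2k1 and 2114 in Map2k2. Nras and Hras shared none.

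Cd47, the targeted gene, was lower in both clones, with a mean of 182 CPM (TMM-scaled read counts set to a common library size) in WT cells, 44.6 in clone E3 and 17.4 in clone E5. Total counts were 44257404 to 55095219 per library. Of the lineage markers, Epcam and the leukocyte genes Ptprc, Cd3e and Adgre1 had at most 3 counts in any library. Marker sums are given in CPM of the raw library total, without TMM scaling. The mesenchymal markers Vim, Cdh2, Cd44 and S100a4 were summed, and the sum was mostly Vim. It was 4942 to 5053 CPM in WT cells, 5890 to 7737 in E3 and 7218 to 7848 in E5. Summed epithelial markers, mostly Krt8 and Krt18, moved differently, from 449 to 462 CPM in WT cells to 129 to 204 in E3 and 877 to 932 in E5. Not every mesenchymal marker rose in E3. Raw counts of Cd44 were 18993 to 21404 in WT cells and 19036, 18580 and 13957 in E3. Those of Cdh2 were 1208 to 1333 in WT cells and 1392, 1443 and 871 in E3. The endothelial markers summed to at most 0.193 CPM and the leukocyte markers to at most 0.492.

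Replicate 3 of clone E3 stood apart from the other libraries by transcript length, and several of the core genes moved with it. On the log2 CPM scale its difference from the mean of replicates 1 and 2 had a median of 0.44 in the shortest of 4 length classes of 10926 genes and -0.62 in the longest class (r = -0.682 with log2 length, across genes). The spread of its differences, as an interquartile range, was 0.735, against 0.0942 to 0.454 in the other 8 libraries. Braf, with a canonical transcript of 9960 bases, was lower in that replicate by a log2 difference of -1.19. The shorter Map2k2 (2163 bases), Hras (2235 bases) and Mapk3 (1800 bases) were higher by 0.60, 0.56 and 0.43. Araf, Nras and Map2k1 lay within 0.17 of the other E3 replicates. Values of the core genes in E3 are therefore given with and without this library.

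**Figure D1:**
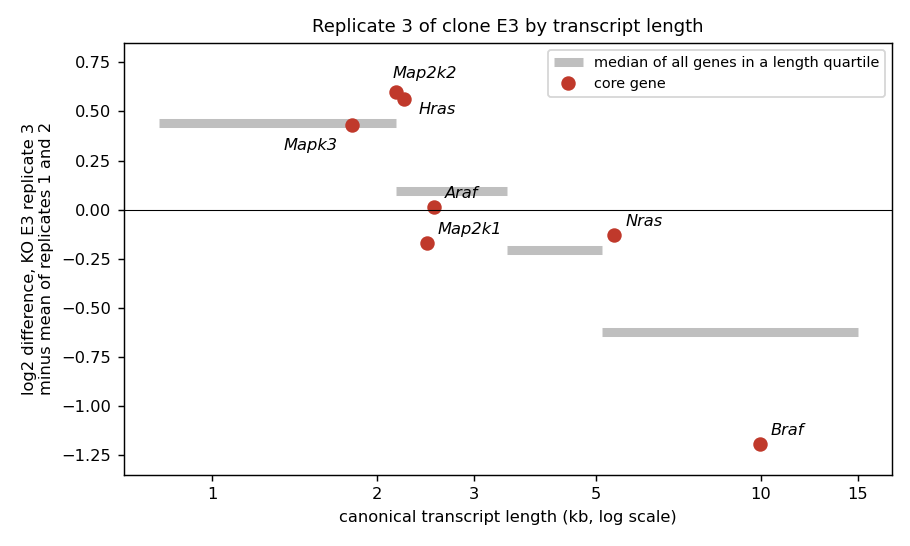
Log2 difference between replicate 3 of clone E3 and the mean of its replicates 1 and 2 (vertical axis) against canonical transcript length in kb (log axis). Grey bars are the medians of all genes in each of 4 length classes, clipped at the sides, and fall from 0.44 to -0.62; red points are the 7 core genes, with Braf lowest at -1.19 and Map2k2 highest at 0.60.

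Nras was lower in clone E3 and did not pass the test in clone E5. Nras (ENSMUSG00000027852.15, GRCm39 chromosome 3, 102965601 to 102975230) encodes the RAS protein that the study lists as mutant in this line; the counts do not separate alleles. Its level was 133, 138 and 136 CPM in WT cells, 106, 121 and 104 in E3, and 135, 130 and 128 in E5. Every E3 library lay below every WT library, while the E5 libraries overlapped with WT. The log2 fold change in E3 was -0.30 ± 0.09 (SE, n = 3 against 3), with an adjusted p of 0.0279 in edgeR's quasi-likelihood test (Benjamini-Hochberg over all genes). Without replicate 3 of E3 it was -0.26 with an adjusted p of 0.00948 in the same edgeR test, but with the trend over transcript length and GC content removed from every library it was -0.17 and no longer passed (adjusted edgeR p of 0.154). Of 18 alternative settings, 8 called Nras in E3. In E5 the log2 fold change was -0.05, with a 95% interval of -0.25 to 0.15 and an adjusted p of 0.726 by edgeR. E3 libraries were also all below those of E5, but that difference of 0.25 missed the threshold with an adjusted edgeR p of 0.0583, and passed it at 0.0261 without replicate 3 of E3.

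Hras (ENSMUSG00000025499.19, chromosome 7, 140769018 to 140773918), the second RAS gene measured, did not pass the test in either clone. It stood at 35.96, 36.5 and 33.4 CPM in WT cells, 29.6, 38.7 and 50.0 in E3, and 40.0, 35.6 and 31.4 in E5. The E3 libraries spanned the WT and E5 libraries on both sides. The log2 fold change was 0.16 in E3 (95% interval -0.22 to 0.54) and 0.01 in E5 (-0.36 to 0.39). Without replicate 3, the E3 value was -0.05.

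Araf (ENSMUSG00000001127.13, chromosome X, 20664053 to 20726758), which encodes the A-RAF kinase, was lower in clone E3 than in either of the other lines. Its level was 54.4, 52.4 and 50.3 CPM in WT cells, 45.8, 42.5 and 44.5 in E3, and 54.6, 52.4 and 54.2 in E5. The E3 libraries lay below all others, and the WT and E5 libraries overlapped. Against WT, the log2 fold change in E3 was -0.24 ± 0.08 (SE), just under the threshold at an adjusted p of 0.0479 in edgeR's quasi-likelihood test. Only 5 of 18 alternative settings called this difference, and it was lost among others with upper-quartile scaling (adjusted edgeR p of 0.199). Against E3, Araf was higher in E5 by 0.28, with an adjusted edgeR p of 0.0253. Without replicate 3 of E3 these differences were -0.25 and 0.29, with adjusted edgeR p-values of 0.00991 and 0.00378. In E5 against WT the value was 0.04 with a 95% interval of -0.14 to 0.22. In GENCODE vM39, 0.244% of the exon bases of Araf lie over Syn1 on the other strand. Syn1 stood at 13.2 CPM in WT cells, 21.3 in E3 and 25.2 in E5. Its part in the Araf counts was not tested.

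Braf passed the test in E3 under some settings only. Braf (ENSMUSG00000002413.16, chromosome 6, 39580171 to 39702397) encodes B-RAF, the RAF kinase with the strongest basal activity. It was measured at 58.1, 59.0 and 59.5 CPM in WT cells, 46.0, 47.6 and 20.4 in E3, and 45.3, 46.5 and 60.2 in E5. All E3 libraries lay below WT, with replicate 3 far below the other E3 libraries, and E5 held values both below and above WT. The log2 fold change in E3 was -0.63, its 95% interval -1.21 to -0.05, and its adjusted p in edgeR's quasi-likelihood test 0.0924. Without replicate 3 the change was smaller, at -0.33, and passed the test with an adjusted edgeR p of 0.0217. With the length and GC trend removed, the setting in which Nras lost its call, Braf passed at -0.46 (adjusted edgeR p of 0.00413), and in all 4 of 18 settings called it. In E5 the value was -0.22, with an interval of -0.79 to 0.36. In GENCODE vM39, 4.60% of the exon bases of Braf lie over Ndufb2 on the other strand. In the file's own coordinates the overlap is short, as Ndufb2 ends at 39580316 and Braf starts at 39580171. The strand setting used in counting is not given in the sources used here. Ndufb2 stood at 16.7 CPM in WT cells, 17.0 in E3 and 13.95 in E5, and its part in the Braf counts was not tested.

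Map2k1 was the core gene that was lower in both clones. Map2k1 (ENSMUSG00000004936.9, chromosome 9, 64093052 to 64160913) encodes MEK1, a dual-specificity kinase whose established substrates are ERK1 and its partner ERK. It had 102, 93.3 and 98.1 CPM in WT cells, 74.97, 80.6 and 69.0 in E3, and 72.5, 67.0 and 66.0 in E5. No library of either clone reached the lowest WT library. Map2k1 fell by 0.38 ± 0.09 on the log2 scale in E3 (95% interval -0.59 to -0.18, a change of -23.4%), with an adjusted p of 0.011 in edgeR's quasi-likelihood test. Leaving out replicate 3 of E3 gave -0.33 in that clone, with an adjusted edgeR p of 0.00271. In E5 it fell by 0.51 ± 0.09 (-0.72 to -0.30, a change of -29.9%), with an adjusted edgeR p of 0.00331. Both comparisons use the same WT libraries and are not independent of each other. The clones differed from each other by -0.13 (-0.34 to 0.08), which did not pass the test. Of 18 alternative settings, 17 called the gene in E3 and 18 in E5, and the exception left out WT replicate 1, where the adjusted edgeR p in E3 was 0.052.

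In the file's own coordinates Snapc5 does not lie over Map2k1. In GENCODE vM39, however, 31.4% of the exon bases of Map2k1 lie over Snapc5 on the other strand. Snapc5 encodes a subunit of the complex that starts transcription of small nuclear RNA genes. Snapc5 ends at position 64090414 in the file, before Map2k1 starts. Its level was 4.26 CPM in WT cells, 7.92 in E3 and 4.50 in E5. It rose in E3 by a log2 fold change of 0.89, where Map2k1 was lower, with an adjusted edgeR p of 0.00243, and its value in E5 was 0.08. Its part in the Map2k1 counts was not tested.

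Map2k2, the gene for MEK2, did not follow Map2k1. Map2k2 (ENSMUSG00000035027.19, chromosome 10, 80941749 to 80969809) stood at 111, 115 and 111 CPM in WT cells, 108, 113 and 167 in E3, and 129, 130 and 122 in E5. The E5 libraries all lay above WT, and in E3 replicate 3 alone did. The log2 fold change was 0.18 in E5 (-0.16 to 0.51, adjusted edgeR p of 0.459) and 0.21 in E3 (-0.13 to 0.54, adjusted edgeR p of 0.332). Without replicate 3 of E3, whose spread the lines share in the fit, the E5 value was again 0.18 and passed with an adjusted edgeR p of 0.0186, and the E3 value was -0.02. E5 was then higher than E3 by 0.21 (adjusted edgeR p of 0.0172), while with all libraries that difference was -0.03 and did not pass.

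Mapk3 differed between the clones rather than from WT cells. Mapk3 (ENSMUSG00000063065.14, chromosome 7, 126358773 to 126364991) encodes ERK1, the last kinase of the cascade. Its level was 94.9, 95.7 and 94.7 CPM in WT cells, 110, 94.5 and 138 in E3, and 84.6, 88.4 and 85.9 in E5. All E5 libraries lay below all WT and E3 libraries, and the E3 libraries overlapped with WT. Neither clone passed the test against WT, with log2 fold changes of 0.26 in E3 (-0.02 to 0.54) and -0.14 in E5 (-0.42 to 0.14). Without replicate 3 the E3 value was 0.10. E5 against E3 was -0.40 (-0.68 to -0.12), with an adjusted p of 0.0326 in edgeR's quasi-likelihood test, and -0.24 without replicate 3 of E3, with an adjusted edgeR p of 0.0151.

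**Figure D2:**
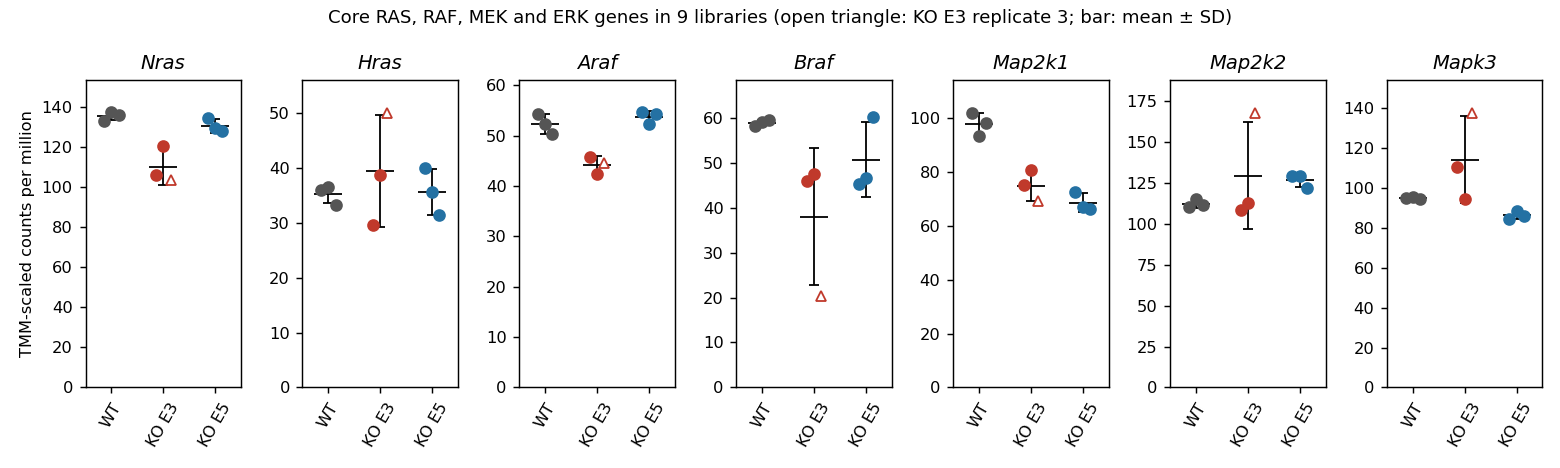
TMM-scaled counts (CPM) of the 7 core genes (vertical axes, each from 0) in WT cells (grey), clone E3 (red) and clone E5 (blue). Points are libraries, the open triangle is replicate 3 of E3, and bars are mean ± SD of 3 libraries; Map2k1 lies below WT in all 6 KO libraries, and replicate 3 of E3 is the lowest point for Braf and the highest for Hras, Map2k2 and Mapk3.

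As a group, 3 of the 7 core genes (Nras, Araf and Map2k1) were lower and 0 higher in clone E3 at an adjusted edgeR p under 0.05, beside 14.7% of all tested genes lower, 15.7% higher and 30.5% called in either direction. DESeq2 also called these 3 lower and 0 higher, and at an unadjusted edgeR p under 0.05 there were 4 lower and 0 higher. In clone E5, 1 of 7 (Map2k1) was lower and 0 higher, beside 11.7% lower, 8.96% higher and 20.6% in either direction. The numbers in E5 were the same with DESeq2 and at an unadjusted edgeR p under 0.05. Between the clones, Araf was higher in E5 and Mapk3 lower, beside 31.9% of all genes called. With edgeR or DESeq2, 0 of the 7 met the study's threshold for DEGs, also at an unadjusted edgeR p, which adds an absolute log2 fold change above 1 and which 9.82% of genes met in E3, 8.21% in E5 and 11.0% between the clones. The same edgeR test called 4 in E3, 2 in E5 and 4 between the clones without replicate 3 of E3, where it called 43.2%, 42.0% and 44.1% of all genes. Libraries did not overlap for 4 members in E3, 3 in E5 and 3 between the clones, while the same held for 45.4%, 55.4% and 44.6% of all genes. The median log2 fold change of the 7 genes was -0.24 in E3 and -0.05 in E5, against 0.01 and 0.00 over all genes. These shares are near those of all genes in E5 and between the clones, and no test of the group was made.

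**Figure D3:**
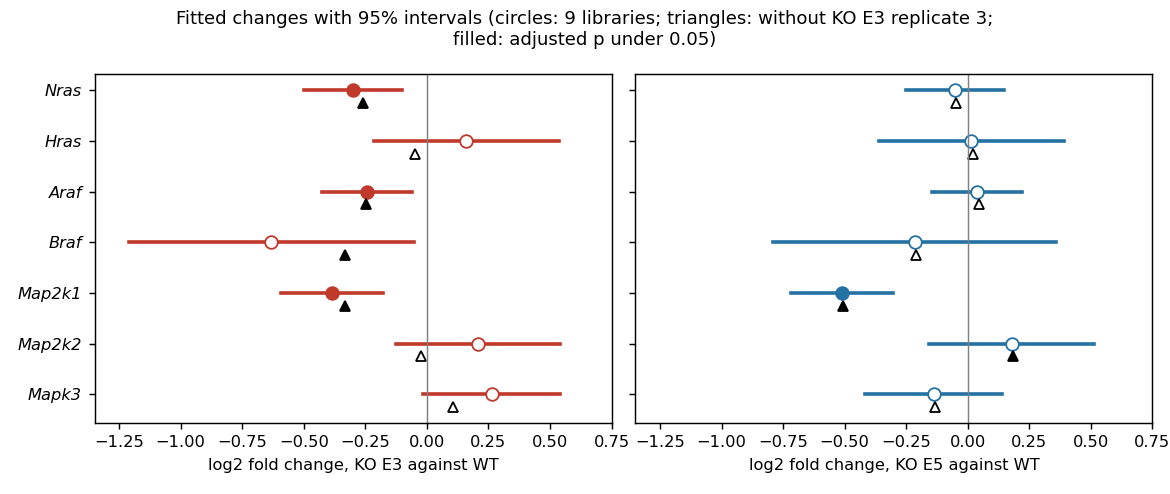
Log2 fold changes (horizontal axes) of the 7 core genes in clone E3 (left) and clone E5 (right) against WT, as circles with 95% intervals from all 9 libraries and as triangles without replicate 3 of E3. Filled symbols passed an adjusted p under 0.05: Nras, Araf and Map2k1 in E3 and Map2k1 in E5 among the circles, with Braf added in E3 and Map2k2 in E5 among the triangles.

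Set against length, Mapk3 was the most abundant of the 7 transcripts and Braf the least, in every line. In WT cells the levels per kb of merged exons were 35.6 ± 0.199 CPM for Mapk3, 26.0 ± 1.12 for Map2k1, 18.6 ± 0.300 for Nras, 12.6 ± 0.268 for Map2k2, 6.97 ± 0.332 for Hras, 5.55 ± 0.219 for Araf and 3.11 ± 0.0387 for Braf (SD, n = 3). No neighbours in this order overlapped in WT cells. The order of the means was the same in both clones, where Map2k1 and Nras came together in E5, at 18.2 ± 0.938 and 17.9 ± 0.471 CPM per kb, and overlapped. In E3, Nras and Map2k2 overlapped, at 15.1 ± 1.26 and 14.5 ± 3.70 CPM per kb. The order depends on the length used: per kb of the canonical transcript, which is 2.163 kb for Map2k2 in place of 8.904 kb, Map2k2 ranked second in WT cells at 51.9 CPM per kb, beside 52.8 for Mapk3, and first in E5 at 58.7, beside 47.9.

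Because a ratio within a library does not depend on its scaling, the balance of each pair of paralogues was compared between the lines. The log2 ratio of Map2k1 to Map2k2, per kb of merged exons, was 1.12, 0.94 and 1.06 in WT cells. It was 0.71, 0.76 and -0.03 in E3 and 0.41, 0.29 and 0.36 in E5. Every KO library had a lower ratio than every WT library, and replicate 3 of E3 had the lowest. Over the 3 lines an exact permutation test of the F statistic (two-sided, 1680 relabelings, smallest possible p of 0.00357) gave p = 0.0571, or 0.0911 after Benjamini-Hochberg adjustment over the 3 pairs. Without replicate 3 of E3 the adjusted p of the exact permutation test was 0.0107. With 3 libraries against 3, E3 and E5 each gave the smallest p the exact permutation test allows against WT, 0.1. The mean ratio fell from 1.04 to 0.35 between WT cells and E5, a difference of -0.69. That difference, unlike the ratio itself, does not depend on the lengths used.

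The ratio of Nras to Hras was 1.36, 1.39 and 1.50 in WT cells, 1.32, 1.11 and 0.52 in E3 and 1.23, 1.34 and 1.50 in E5. E3 lay below all WT libraries and overlapped with E5. The adjusted exact permutation p over the lines was 0.0911. That p was 0.0429 without replicate 1 of E3, a setting in which the outlying replicate 3 weighs more. Without replicate 3 of E3 the adjusted exact permutation p was 0.271. The largest difference between line means was then 0.20, against 0.43 with all libraries. Araf to Braf gave 0.91, 0.83 and 0.76 in WT cells, 1.00, 0.84 and 2.13 in E3 and 1.27, 1.18 and 0.85 in E5. Both clones overlapped with WT, and the exact permutation p was 0.486. Without replicate 3 of E3 the adjusted exact permutation p was 0.214. The largest difference between line means of Araf to Braf was then 0.085, against 0.49 with all libraries.

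**Figure D4:**
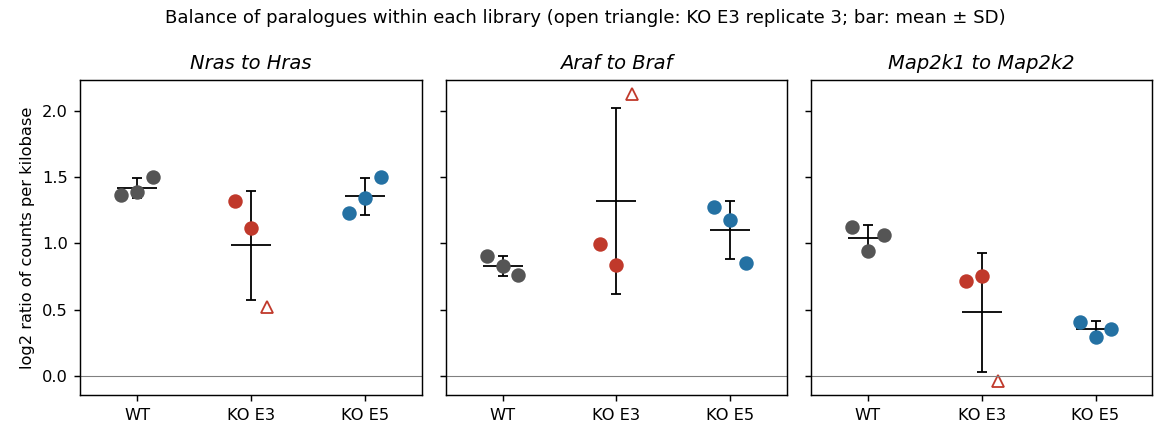
Log2 ratio of counts per kb of merged exons (vertical axis, shared) of Nras to Hras, Araf to Braf and Map2k1 to Map2k2 in each of the 9 libraries. Points are libraries, the open triangle is replicate 3 of E3, and bars are mean ± SD of 3 libraries; Map2k1 to Map2k2 falls from a mean of 1.04 in WT cells to 0.48 in E3 and 0.35 in E5.

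The genes around each core gene were examined because a clone can gain or lose a chromosome segment, which was not measured here. For Map2k1, the 10 tested genes on each side had a median log2 fold change of -0.06 in E3 and -0.20 in E5, where 17 of the 20 were below 0, against -0.38 and -0.51 for Map2k1 itself. For Nras in E3, the neighbours had a median of -0.26, close to the value of Nras, -0.30, with 14 of 20 below 0. With 5 genes on each side that median was -0.03, with 5 of 10 below 0, and with 25 it was -0.27. For Mapk3 in E5, 19 of 20 neighbours were below 0 with a median of -0.50, lower than Mapk3 itself at -0.14. Araf had neighbours with a median of 0.31 in E5, of which 1 of 20 was below 0, against 0.04 for Araf, and of 0.05 in E3, against -0.24. Neighbours of Braf had medians of -0.17 in E3 and -0.33 in E5. The medians for Hras were 0.12 and 0.02, and those for Map2k2 -0.18 and 0.12. Between the clones, E5 against E3, the neighbours of Araf had a median of 0.24, with 4 of 20 below 0, against 0.28 for Araf. In the same comparison the neighbours of Mapk3 had a median of -0.25, with 14 of 20 below 0, against -0.40 for Mapk3. The part of these regions in the members' values was not tested.

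The genes whose log2 CPM followed each core gene most closely over the 9 libraries were taken from 10933 genes, as a description over 3 lines that share much of their variation. Map2k1 was most like Cd274, the immune checkpoint ligand PD-L1 (r = 0.973), Ppp3cb, a calcineurin subunit (0.967), and Mark4, a microtubule-affinity kinase (0.965), and these r were 0.981, 0.973 and 0.963 without replicate 3 of E3. Nras was most like Nadk, the NAD kinase (0.990), Mcm2, a subunit of the replicative helicase (0.990), and Mcl1, an inhibitor of apoptosis (0.988). Araf was closest to the non-coding RNAs Snhg14 (0.977) and Pvt1 (0.965) and the lactate transporter gene Slc16a3 (0.964). Braf was closest to Sos1, a RAS exchange factor (0.997), Slc4a7 (0.994) and Ttc9c (0.993). Without replicate 3 of E3 these r were 0.987, 0.958 and 0.953. Over all 9 libraries, 205 genes reached an r above 0.95 with Braf, against 14 for Map2k1, and these numbers were not repeated without that library. For Hras the closest were Snrpb, Phb1 and Pop4, at 0.971, 0.966 and 0.959. The closest to Map2k2 were Aarsd1, Tomm40l and Apex1, at 0.984, 0.979 and 0.976, and those to Mapk3 were Antkmt, Rras and Kctd2, at 0.989, 0.985 and 0.984. Leaving out replicate 3 of E3 gave 0.926, 0.9555 and 0.915 for the genes closest to Hras. It gave 0.946, 0.959 and 0.922 for Map2k2 and 0.957, 0.947 and 0.967 for Mapk3. Those of Nras and Araf were then 0.960 to 0.983.

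Among RAS relatives outside the core, Rras2, which encodes a RAS-like GTPase also called TC21, was lower in both clones. It stood at 59.8, 59.3 and 56.1 CPM in WT cells, 37.4, 47.7 and 49.6 in E3, and 31.3, 28.1 and 26.9 in E5, with no overlap between any of the lines. The log2 fold change was -0.38 in E3 and -1.02 in E5, with adjusted p-values of 0.0335 and 0.000189 in edgeR's quasi-likelihood test, and the clones differed by -0.64. Mras fell by 0.46 in E3 and by 0.45 in E5 on the log2 scale, with adjusted edgeR p-values of 0.00667 and 0.0106. Rras was at 19.5, 27.8 and 18.0 CPM in WT, E3 and E5 and passed in neither clone by edgeR. DESeq2 called it higher in E3, and its edgeR value there was 0.51 with all libraries and 0.21 without replicate 3 of E3.

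Counts of the pathway genes that passed are to be read beside the shares of all tested genes, 14.7% lower and 15.7% higher in E3, and 11.7% and 8.96% in E5. They are also given with replicate 3 of E3 left out, where 43.2% of all genes were called in E3 and 42.0% in E5. Of 9 tested adaptors and RAS exchange factors, 1 was lower and 1 higher in E3 by edgeR. In E5 edgeR and DESeq2 called 0, with 1 lower at an unadjusted edgeR p under 0.05. With that library left out these counts became 2 lower against 4 higher in E3, and 2 of each in E5. Sos2, an exchange factor, fell by 0.82 in E3 and had a value of 0.33 in E5. Without replicate 3 of E3 the value of Sos2 in E3 was -0.59. In E5 Sos2 then passed with an adjusted edgeR p of 0.000666, against 0.265 with all libraries. Of 8 GTPase-activating proteins, which switch RAS off, 1 was higher in E5, Rasa4 (0.60), and without replicate 3 of E3 either clone had 1 lower and 3 higher. Of 9 genes for RAS lipid modification, 1 was lower and 1 higher in E3, and 2 were higher in E5, or 1 lower against 3 higher in E5 and the same counts in E3 without replicate 3 of E3. Fntb, the beta subunit of the farnesyltransferase, differed in sign between the clones, at -0.28 in E3 and 0.35 in E5. Fnta, the alpha subunit, rose by 0.49 in E3, and Zdhhc9, which takes part in RAS palmitoylation, rose by 0.47 in E5.

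Scaffolds and RAF regulators numbered 21, of which E3 had 1 lower and 4 higher and E5 had 2 of each. Leaving out replicate 3 of E3 gave 3 lower and 9 higher scaffolds and regulators in E3, against 3 and 4 in E5. Arrb1, which encodes the scaffold beta-arrestin 1, rose by 2.30 in E5 on the log2 scale, from 7.19 to 35.4 CPM. Hsp90ab1, a chaperone that binds RAF kinases, rose by 0.31 in E3 and 0.35 in E5. Pea15a, an anchor of ERK in the cytoplasm, rose by 0.60 and Ppp1ca, a phosphatase subunit, by 0.44 in E3, and Ppp1cc fell by 0.29 in E5. Of 17 genes of the parallel p38, JNK and ERK5 modules, E3 had 3 lower and 2 higher, and E5 had 1 of each, or, without replicate 3 of E3, 5 of each in E3, and 6 lower against 3 higher in E5. Map3k5 fell by 1.14 in E3, and Map3k1 fell by 0.58, or by 0.34 without replicate 3. Mapk12 fell by 0.43 in E5, and Map2k6, a p38 activator, rose by 0.43 in E3 and 0.89 in E5.

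Downstream of ERK, some changes were larger than any in the core. Of 8 kinases that ERK activates, E3 had 2 in each direction and E5 had 1 in each, or, with replicate 3 of E3 left out, 3 lower against 2 higher in E3, and 1 against 3 in E5. Mknk1, which phosphorylates the translation factor eIF4E, fell by 1.16 in E3 and 0.63 in E5. Rps6ka2, an RSK kinase, fell by 1.36 in E3 and had a value of 0.05 in E5. Rps6ka6 rose by 0.65 in E3, and Rps6ka5 by 0.60 in E5. Of 18 transcripts known as targets of ERK signaling, 6 were lower in E3 against 1 that was higher, and 8 in E5 against 1, with medians of -0.27 and -0.23. Egr1, an immediate early transcription factor, fell from 24.6 CPM to 0.951 in E3 and 1.40 in E5. Dusp5, a phosphatase of nuclear ERK, fell by 1.21 and 0.66. Etv5 fell by 1.07 in E3 and had a value of 0.04 in E5, while Spry2 and Spry1, feedback inhibitors of receptor signaling, had log2 fold changes of -1.44 and -1.37 in E5, which passed the test, and of -0.25 and -0.23 in E3, which did not. Without replicate 3 of E3, E3 had 9 lower and 3 higher ERK targets, and E5 had 10 and 4. The summed mesenchymal and epithelial markers given above moved in the same libraries, and their part in these values was not tested.

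**Figure D5:**
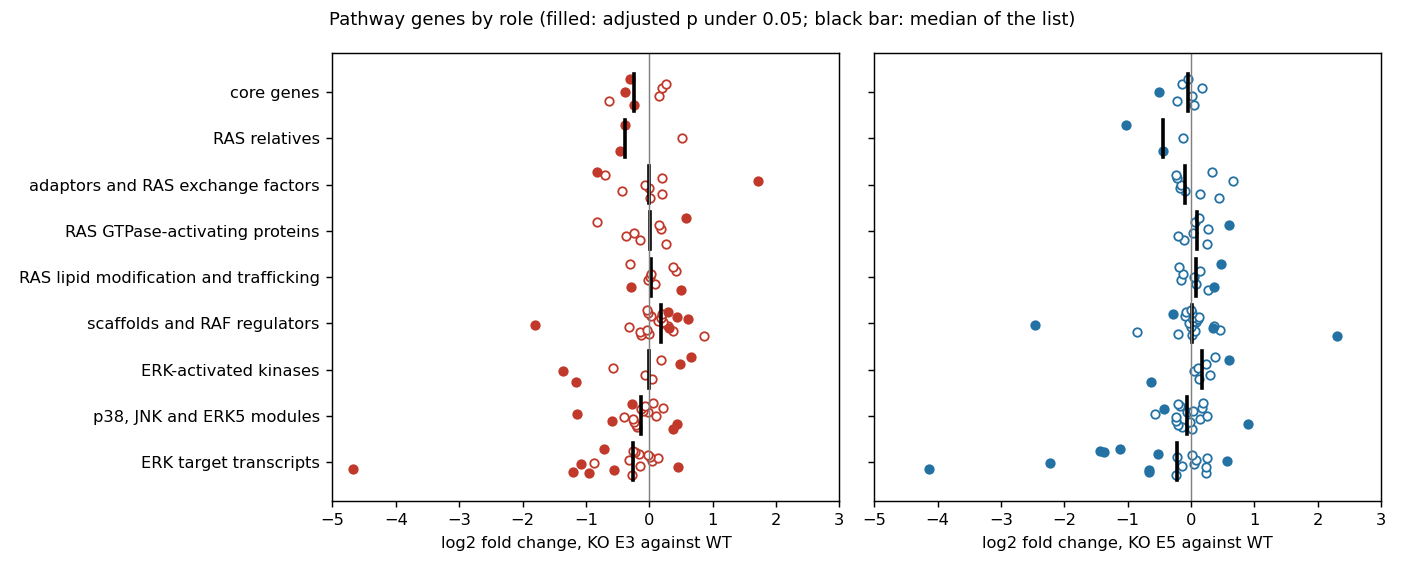
Log2 fold change (horizontal axes) of each tested gene in clone E3 (left) and clone E5 (right) against WT, grouped by role in the cascade. Points are genes, filled where the adjusted p is under 0.05, and black bars are list medians; the core genes lie between -0.63 and 0.26, while ERK target transcripts reach -4.68 in E3 and -4.14 in E5.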

How the data were processed

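RNA-seq counts of 9 libraries were analysed. Per the labels and the study's methods, the authors used FastQC and Trimmomatic on the reads and STAR for alignment (GRCm39), and deposited unnormalized counts for each gene and library. The counting tool, strand setting and annotation release are not given in the sources used here. Groups came from the labels.

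The quasi-likelihood test of edgeR (version 4.0.16; R 4.3.3) was run on these counts with TMM scaling, 1 model for the 3 lines, and filterByExpr at a minimum count of 10 and a minimum total of 15. The threshold was an FDR under 0.05 by Benjamini-Hochberg adjustment over all 14593 genes. The BCV was 14.8%, and replicate pairs differed by more than sampling noise. The SE was taken as the size of the log2 fold change divided by the root of F. The test was checked on simulated counts first. Lengths and sequences came from GENCODE vM39, which holds 50267 of the 50813 genes, and 56.2% of these have the file's start and end. For every core gene the start or the end differed from the file's. Levels per kb and ratios therefore use lengths that may not be those counted over.

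The alternatives were DESeq2 (version 1.42.0), its size factors, upper-quartile scaling, other filters, a fit of the 2 compared groups alone, a block for replicate number, a robust spread and each library left out. Removal of a length and GC trend and canonical lengths were added after seeing the data. The core genes and all lists were chosen with earlier results of these data known. Besides the core genes, the text names Cd47, the RAS relatives, up to 3 genes per list and clone with the largest change among those that passed with an average log2 CPM above 1, and the 3 genes most like each core gene. Snapc5, Ndufb2 and Syn1 were named for their overlap with a core gene. Not every gene of the pathway that this rule covers is reported here.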

Additional observations from a re-analysis of the deposited data

Results flagged for a closer look

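Several effects differed between the clones, as tested by edgeR's quasi-likelihood contrast of E5 against E3 (log2 scale, adjusted p under 0.05, 3 libraries each). Among the core genes these were Araf, higher in E5 by 0.28, and Mapk3, at -0.40. Both passed in 9 of 18 alternative settings.

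Lower in E5 than in E3 were the RAS relatives Rras (-0.63, or -0.33 without replicate 3 of E3) and Rras2 (-0.64), Snapc5 (-0.82), the targeted Cd47 (-1.36), Pea15a (-0.49), Ppp1cc (-0.49), and the feedback inhibitors Spry2 (-1.19) and Spry1 (-1.14). Higher in E5 were the exchange factor gene Sos2 (1.15), the GTPase-activating protein gene Rasa4 (0.44), the lipid modification genes Fntb (0.64) and Zdhhc9 (0.78), the scaffold gene Arrb1 (1.43), the kinase genes Rps6ka2 (1.41), Mknk1 (0.53) and Map2k6 (0.46), and the ERK targets Dusp5 (0.55) and Etv5 (1.11).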

How the results depend on the processing

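Map2k1 was called in 17 of 18 settings in E3 and 18 of 18 in E5. The 3 genes called in E3 became 1 (Map2k1) under upper-quartile scaling, with only the 2 groups compared or with the replicate number as a block, and 0 to 4 when 1 library was left out, with 0 without WT replicate 1 and 4 without replicate 3 of E3. The 1 gene called in E5 became 3 (Map2k1, Map2k2 and Mapk3) with only the 2 groups compared, 2 (Map2k1 and Map2k2) with the length and GC trend removed, and 1 to 2 when 1 library was left out. The 2 between the clones became 1 (Mapk3) under upper-quartile scaling or with no filter, 0 with only the 2 groups compared or with the block, and 0 to 4 with 1 library left out. Replicate numbers did not pair the libraries (correlations of same-numbered libraries -0.316 to 0.14), and under the block the adjusted exact permutation p of Map2k1 to Map2k2 was 0.208, that of Nras to Hras 0.208 and that of Araf to Braf 0.583. With 1 library left out the largest difference between line means ranged from 0.65 to 0.74 for Map2k1 to Map2k2, from 0.20 to 0.60 for Nras to Hras and from 0.085 to 0.73 for Araf to Braf.

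Directions that turned were all of values that had not passed the test: without replicate 3 of E3, Map2k2 between the clones (0.21, now past the threshold); Hras in E5 without WT replicate 3 (-0.027); Map2k2 between the clones without E5 replicate 3 (0.0031); and, with the trend removed, Hras (0.030) and Map2k2 (0.17) between the clones. With 1 library left out, Hras ranged from -0.049 to 0.33 in E3, from -0.080 to 0.099 in E5 and from -0.32 to 0.069 between the clones, and Map2k2 from -0.024 to 0.32 in E3 and from -0.14 to 0.21 between the clones; replicate 3 of E3 gave the turned values of Hras and Map2k2 in E3 and between the clones, and replicate 1 of E5 that of Hras in E5. Their causes were not tested. Upper-quartile scaling moved the median of all genes to 0.09 in E3. Every core gene had 929 or more counts in each library. Counting error was not set against the spread between libraries for each gene.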
